A study of Mus musculus with 7 samples.

Results

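The genes described here encode neurotransmitter receptors that islet cells can use to sense nerves and their neighbours. The list holds 34 receptor genes, taken by name and not by a threshold on these counts. It covers 9 ionotropic and 2 metabotropic glutamate receptor genes, 3 GABA and 2 glycine receptor genes, 2 muscarinic and 3 nicotinic acetylcholine receptor genes, 3 adrenergic, 2 adenosine and 2 ATP receptor genes, 3 dopamine or serotonin receptor genes and 3 neuropeptide receptor genes. Of the 34, 33 had a row among the 23465 genes of the tables, and Gria1 was not analysed here. In cells kept by the authors, 22 genes had 50 UMIs or more (unique molecular identifiers, each counting 1 captured molecule), from 50 for Chrm4 to 1766 for Gria2. The other 11 had between 1 and 30. A filter on low counts left 21 of the 33 for testing, among 13265 genes tested in all. Genes that passed only through the cell type where they are high had to differ between types, so the 21 do not stand for the whole list.

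Islets hold hormone cells that are touched by autonomic nerves and that also release transmitters to each other. Ionotropic receptors are ion channels opened by glutamate, GABA, glycine, acetylcholine or ATP, while metabotropic receptors act through G proteins: Gs raises cyclic AMP, Gi lowers it, and Gq releases calcium from stores. In islets, acetylcholine acting on muscarinic receptors is known to raise insulin release, noradrenaline acting on alpha-2 adrenergic receptors is known to inhibit it, and glutamate is known to act on alpha cells through AMPA receptors.

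Islets of Langerhans came from female C57BL/6 mice aged 10 weeks, were dissociated, and went into droplet single-cell libraries made with a 5' kit and read on a Nanopore instrument, whose long reads can span a transcript. Both libraries used here carry the modified protocol (added dNTP and longer extension at both synthesis steps), and a Cas9-based panel removed insulin cDNA from both. They are 2 of 7 samples in 4 groups, and the other samples were not analysed here. Every comparison below is therefore between cell types within the same 2 libraries, called replicates 1 and 2. Replicate 1 held 4814 kept cells and 11012364 UMIs (median 2110 per cell) and replicate 2 held 1093 kept cells and 12092393 UMIs (median 9949 per cell). Cell types are the authors' clusters. They were built from the same gene counts, so tests of genes between them are circular in part. Whether the libraries are from different mice is not stated, so p-values reflect only the spread between these libraries, which may be technical. Of the kept barcodes, 5 occur in both libraries.

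For testing, the UMIs of all cells of a type in a library were added up, for the 6 types that reached 20 cells in both libraries: beta cells (2284 and 435 cells in replicates 1 and 2), alpha cells (961 and 239), the class named delta (965 and 318), PP cells (283 and 41), endothelial cells (141 and 26) and stellate cells (118 and 27). Levels are CPM, the UMIs of a gene scaled to the total of such a sum, given as replicate 1 and replicate 2. Log2 fold changes and their standard errors (SE) come from edgeR's quasi-likelihood fit over all 12 sums with TMM scaling and the library as a block, so they differ somewhat from ratios of CPM. A gene was called when its Benjamini-Hochberg adjusted p over all genes tested was under 0.05, and every adjusted p of a fold below is from that fit. In such sums, fewer cells with a transcript and less of it per cell cannot be told apart. The alpha, beta, PP and stellate marker lists had their highest sums in the types of those names in both libraries. The endothelial class was mixed: duct markers summed to 4516 and 18906 CPM there and endothelial markers to 11780 and 2454 CPM. Its cluster 15 held 12 of 141 and 16 of 26 cells, and 289439 of the 353271 UMIs of replicate 2, so the nonendocrine comparison is also given without it, a setting chosen after seeing the data. The delta class was mixed: its 5 delta markers summed to 99248 and 73050 CPM in the whole class, to 162285 and 118043 CPM in its cluster 3, and to 0 and 50.0 CPM in its cluster 16, a group of 7 and 7 cells. In cluster 16 the 7 nerve markers (among them Prph, Stmn2, Tubb3 and Vip) summed to 33584 and 25639 CPM, against 366 and 341 CPM in beta cells, and Hhex was at 0. Results of the delta class are therefore also given without cluster 16, an alternative chosen after seeing the data.

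Among the 22 receptor genes with 50 UMIs or more, the endocrine type with the highest level was the same in both libraries for 18. That type was beta for 10 genes (Grin1, Grin2c, Gabbr2, Glra1, Chrm3, Chrnb2, Adra2a, Adora1, P2ry1 and Galr1), alpha for 4 (Gria2, Gria3, Adora2a and Avpr1b), delta for 2 (Chrm4 and Chrnb4) and PP for 2 (Gabbr1 and P2rx4). For Grik5, Gabra4, Adra1a and Adrb1 the highest type differed between the libraries. These ranks are of CPM without TMM scaling, and close ranks can depend on it. TMM factors were 0.80 and 0.81 in alpha and 1.08 and 1.08 in beta cells. P2rx4, for example, was lower in alpha than in beta cells by CPM in both libraries, but its fitted fold was 0.21 ± 0.23 and not called.

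**Figure D1:**
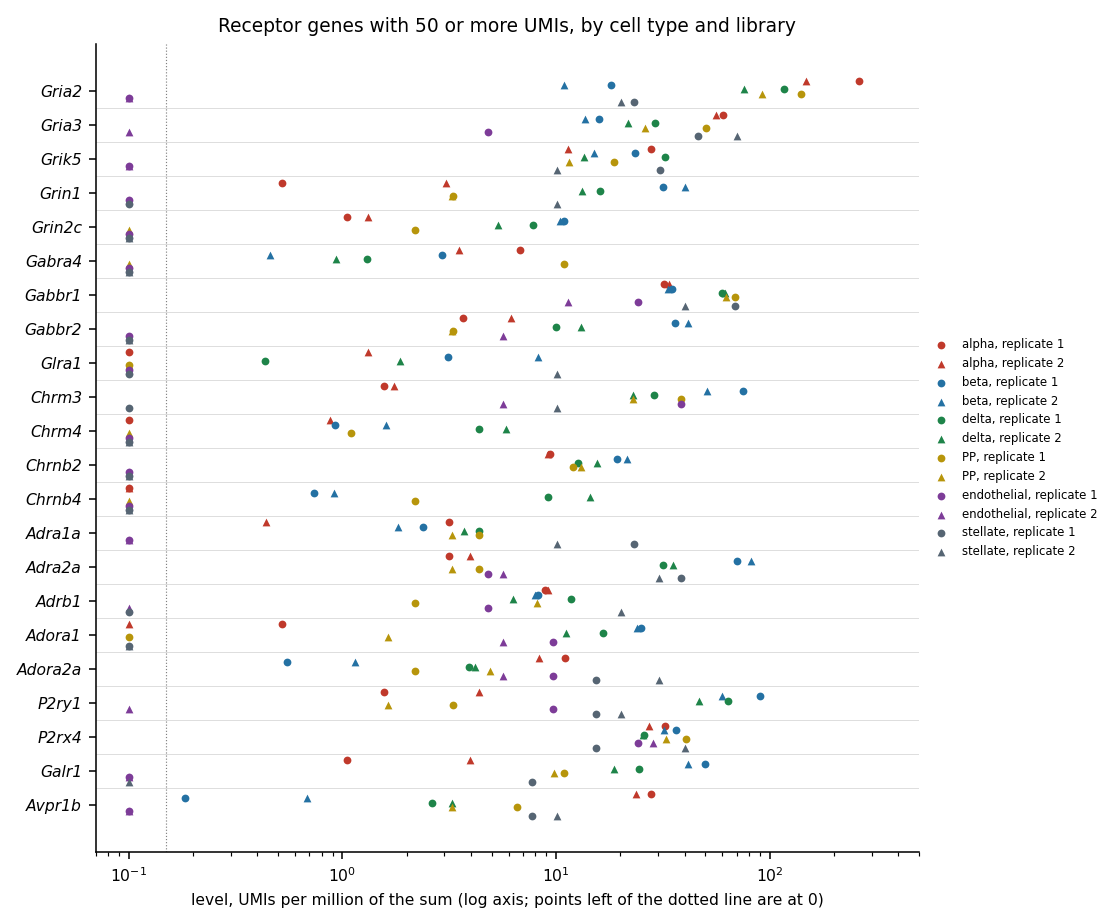
Levels of the 22 receptor genes with 50 UMIs or more, in CPM on a log axis. Each point is 1 library (circle, replicate 1; triangle, replicate 2) of 1 cell type (colour), and points left of the dotted line are at 0. Gria2 lies highest in alpha cells at 261 and 147 CPM, while Adra2a, P2ry1 and Chrm3 lie highest in beta cells.

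Gria2 encodes an AMPA receptor subunit, a glutamate-gated channel subunit that limits calcium entry once its RNA is edited (chr3:80681450-80802835, minus strand, GRCm38). Its level was 261 and 147 CPM in alpha cells, 140 and 91.6 CPM in PP cells, 116 and 75.7 CPM in the delta class and 18.01 and 10.9 CPM in beta cells. Alpha, PP and delta sums all lay above both beta sums. Both alpha sums lay above both PP sums, though 147 and 140 CPM are close, and PP and delta sums overlapped. Against beta cells Gria2 was higher in alpha cells by 4.22 ± 0.24 (log2 fold change ± SE, adjusted p = 1.89e-13), in the delta class by 2.77 ± 0.23 (5.44e-10) and in PP cells by 3.40 ± 0.25 (8.03e-11). It was lower than in alpha cells by -1.45 ± 0.21 in the delta class (9.68e-06) and by -0.82 ± 0.22 in PP cells (0.0303), and the last call was lost without the replicate block and with cell types from transcript clusters. With every sum thinned to 99232 UMIs, the Gria2 calls of delta and PP cells were lost, both against beta and against alpha cells.

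A Gria2 UMI was found in 36.9% of alpha cells in replicate 1 and 70.3% in replicate 2, at median depths of 1959 and 8917 UMIs per cell. The shares of beta cells were 4.25% and 8.51%, at 2224 and 9947 UMIs. With each cell thinned to 1000 UMIs the shares were 24.2% and 12.1% of alpha cells and 2.19% and 1.84% of beta cells, leaving out 59 alpha and 95 beta cells of replicate 1 that were shallower. As a background for free RNA in droplets, the UMI was in 0 of 141 and 0 of 26 cells of the endothelial class (16 of the 26 from cluster 15), at 1121 and 10417 UMIs. It was in 3 of 118 and 1 of 27 stellate cells (2.54% and 3.70%), at 901 and 3319 UMIs, and in 2 of 62 and 0 of 7 macrophages. Thinned, stellate cells stood at 4.76% (76 cells left out as too shallow) and 0%. The thinned beta share was thus below the stellate share in replicate 1 and above it in replicate 2. Alpha markers summed to 19420 and 22059 CPM in stellate cells and to 3481 and 5026 CPM in beta cells, so stellate cells are not a clean background. Whether the beta share exceeds free RNA was not tested, and a level above background is not claimed. The stellate level, 23.0 and 20.2 CPM from 5 UMIs, lay above both beta sums. Of the Gria2 UMIs of the beta class, 44.5% lay in its cluster 5, with 315 and 56 cells, at 49.5 and 44.3 CPM. The largest beta cluster, cluster 0, stood at 10.9 and 4.95 CPM. When each type was narrowed to the clusters that carry mainly its own markers, which leaves out cluster 5, the log2 fold change of alpha against beta cells was 4.91.

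Most Gria2 molecules could not be placed on a full coding transcript. Of 1766 gene UMIs, 654 were assigned to an annotated transcript, and of these 70.6% were on retained-intron models and 27.2% on coding models. The leading retained-intron model, ENSMUST00000194383 with 13 exons, held 43.3% of the transcript UMIs in alpha cells of replicate 1 (exact binomial 95% interval 36.2 to 50.6%, counting error only) and 37.1% in replicate 2 (28.9 to 46.0%). In the delta class it held 27.8% (19.2 to 37.9%) and 32.8% (24.3 to 42.1%). This model ends at chr3:80691521, before both of the alternative exons known as flop and flip, which set how fast the channel desensitizes. The 2 coding models with 16 exons differ in which of these they carry as exon 14. Both exons have 115 bases and are 68.7% identical, and they are printed because they are what long reads can tell apart here. Capitals mark the 36 bases that differ, and the sequences are from GENCODE M21, read 5′ to 3′ on the minus strand at chr3:80691320-80691434 (flop) and chr3:80690404-80690518 (flip).

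Gria2 exon 14, flop, ENSMUST00000075316: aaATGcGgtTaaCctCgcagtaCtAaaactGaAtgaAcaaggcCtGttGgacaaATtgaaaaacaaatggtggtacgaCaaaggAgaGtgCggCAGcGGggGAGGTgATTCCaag
Gria2 exon 14, flip, ENSMUST00000107745: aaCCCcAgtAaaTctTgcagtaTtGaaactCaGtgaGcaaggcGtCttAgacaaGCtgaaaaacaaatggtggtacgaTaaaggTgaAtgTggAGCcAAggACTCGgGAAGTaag

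The flop model held 43 of 194 and 27 of 132 transcript UMIs in alpha cells, or 22.2% (16.5 to 28.7%) and 20.5% (13.9 to 28.3%). The flip model held 3 and 9 UMIs there, or 1.55% (0.320 to 4.45%) and 6.82% (3.16 to 12.5%). In the delta class flop held 25.8% (17.4 to 35.7%) and 23.3% (15.9 to 32.03%), and flip 7.22% (2.95 to 14.3%) and 7.76% (3.61 to 14.2%). Flop molecules outnumbered flip molecules in both types and both libraries. The flip share of the delta class lay above that of alpha cells in each library, but the counting intervals overlapped in both libraries. Gria2 was not called by edgeR's diffSpliceDGE in delta against alpha cells.

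Gria3, a further AMPA subunit gene (chrX:41400854-41678601, plus strand), stood at 60.2 and 56.0 CPM in alpha, 50.3 and 26.2 in PP, 29.2 and 21.7 in delta and 15.8 and 13.7 CPM in beta cells. Alpha sums lay above all sums of the other endocrine types, and beta sums lay below them. Against beta cells the log2 fold change was 2.40 ± 0.24 in alpha (adjusted p = 8.29e-09), 1.81 ± 0.30 in PP (6.58e-05) and 0.81 ± 0.25 in delta (0.027). The last call was lost under DESeq2, without the block, in own-marker clusters and without cells of high doublet score. The delta class was lower than alpha cells by -1.59 ± 0.24 (1.78e-05). Gria4, the remaining AMPA gene measured, had 8 UMIs.

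Grin1 encodes the subunit required in every NMDA receptor, a glutamate channel that also needs glycine or serine (chr2:25291181-25319187, minus strand). It stood at 31.6 and 40.3 CPM in beta cells, 16.1 and 13.3 in the delta class, 3.28 and 3.27 in PP cells and 0.523 and 3.06 CPM in alpha cells. Beta cells had the highest and alpha or PP cells the lowest sums, with no overlap between beta, delta and the other endocrine types. The log2 fold change against beta cells was -3.80 ± 0.43 in alpha (adjusted p = 1.07e-07), -3.003 ± 0.54 in PP (0.000181) and -1.27 ± 0.27 in delta (0.00105, lost under DESeq2 and without the block). Delta against alpha was 2.53 ± 0.50 (0.000696). Grin2c, a regulatory NMDA subunit, was also highest in beta cells, at 10.8 and 10.5 CPM against 1.05 and 1.31 in alpha cells (-2.68 ± 0.65, adjusted p = 0.00346). In PP cells it had 2 UMIs, which gives a ratio of 8.15 between beta and PP (95% counting interval 2.20 to 68.2, adjusted p of the fit 0.0456). That call was lost under DESeq2, without the block, in own-marker clusters and without cells of high doublet score. Within the beta class, cluster 0 had 39.5 and 48.6 CPM of Grin1. Cluster 5, which is not among the own-marker clusters, had 13.8 and 9.17.

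Grik5 encodes a kainate receptor subunit that binds glutamate with high affinity but needs a partner to form a channel. Its 435 UMIs were spread over the endocrine types at 11.4 to 32.2 CPM, and none of the 5 comparisons between endocrine types called it. Replicate 1 lay above replicate 2 in each of these types: beta cells stood at 23.5 and 15.04 CPM and delta at 32.2 and 13.5. The other glutamate receptor genes were at the limit of detection. Grik2, a kainate subunit that can form the channel, had 30 UMIs, Grm8 had 19, Grin3a 4 and Grm4 2, the last gene and Grm8 encoding receptors that couple to Gi.

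The GABA-B receptor works as a pair, in which the Gabbr1 protein binds GABA and the Gabbr2 protein carries the signal to Gi. The genes did not share a pattern. Gabbr2 (chr4:46662305-46991873, minus strand) stood at 36.0 and 41.5 CPM in beta cells, 10.01 and 13.04 in delta, 3.66 and 6.13 in alpha and 3.28 and 3.27 CPM in PP cells, so beta sums lay far above the rest. Its log2 fold change against beta cells was -2.55 ± 0.33 in alpha (adjusted p = 1.05e-06), -3.11 ± 0.50 in PP (4.54e-05) and -1.70 ± 0.26 in delta (1.87e-05).

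Gabbr1 (chr17:37045966-37075067, plus strand) stood at 68.9 and 62.2 CPM in PP cells, 59.6 and 61.7 in delta, 31.9 and 33.7 in alpha and 34.7 and 33.5 CPM in beta cells. PP sums lay just above delta sums, alpha and beta sums overlapped, and PP and delta lay above both of these. It was higher than in beta cells in PP cells by 1.35 ± 0.24 (adjusted p = 0.000143) and in delta by 0.88 ± 0.20 (0.00264), and higher in PP than in alpha cells by 0.98 ± 0.25 (0.0217, lost without the replicate block and with cell types from transcript clusters). All of these Gabbr1 calls were lost with every sum thinned to 99232 UMIs. Delta against alpha was 0.51 ± 0.22 and not called. Without cluster 16, which held 13.7% of the delta class's Gabbr1 UMIs, delta against beta was 0.76 and still called. Of 630 Gabbr1 transcript UMIs, 89.0% were on ENSMUST00000174456, a coding model of 4 exons and 1595 bases that spans chr17:37046028-37049467 at the 5′ end of the gene. The full model ENSMUST00000025338 with 23 exons held 3.48% and 4.62% of the transcript UMIs in beta cells and 4.598% and 1.14% in delta. For Gabbr2, by contrast, the 19-exon model ENSMUST00000107749 held 98.4% (95.3 to 99.7%) and 99.4% (96.8 to 99.99%) of the transcript UMIs of beta cells.

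Gabra4, a subunit of the GABA-gated chloride channel, had 56 UMIs and did not pass the filter. It ranged from 0 to 10.9 CPM in PP cells and from 3.50 to 6.80 in alpha cells. Glra1, a subunit of the glycine-gated chloride channel, had 66 UMIs and stood at 3.12 and 8.21 CPM in beta cells. Beta cells had 53 of its UMIs and alpha cells 3, a ratio of 7.54 (2.44 to 37.7), with an adjusted p of 0.044 that was lost under DESeq2, without the block and with cell types from transcript clusters. Delta against beta was -2.21 ± 0.73 (0.0427, lost under the same settings, without cluster 16 and without cells of high doublet score). Glra3 had 1 UMI.

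Chrm3 encodes the Gq-coupled muscarinic receptor through which acetylcholine acts on islet cells (chr13:9875486-10360847, minus strand). It stood at 75.3 and 50.8 CPM in beta cells, 38.3 and 22.9 in PP cells, 28.7 and 22.8 in the delta class and 1.57 and 1.75 CPM in alpha cells. Beta sums were the highest, PP and delta overlapped, and alpha cells lay far below all of them. The log2 fold change of alpha against beta cells was -4.75 ± 0.41 (adjusted p = 4.68e-10), and alpha cells were also below the delta class (delta against alpha 3.53 ± 0.47, 2.46e-06) and PP cells (PP against alpha 4.12 ± 0.52, 1.00e-05). Delta against beta was -1.22 ± 0.24 (0.000408, lost without the block), while PP against beta was -0.63 ± 0.30 and not called. Within the delta class, cluster 3 stood at 15.7 and 15.8 CPM and cluster 8, whose beta markers summed to 93473 and 74596 CPM against 36040 and 38124 in cluster 3, at 40.5 and 36.0. The part of those markers in the delta level was not tested. In beta cells 54.8% (48.1 to 61.4%) and 50.5% (40.7 to 60.2%) of the Chrm3 transcript UMIs were on the coding model ENSMUST00000187510, and 31.1% and 31.2% on the retained-intron model ENSMUST00000223242.

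Chrm4, a Gi-coupled muscarinic receptor gene, had 50 UMIs, 35 of them in the delta class at 4.35 and 5.82 CPM against at most 1.60 in the other endocrine types. Of the delta UMIs, 54.3% were in cluster 3, at 6.85 and 7.27 CPM, and 28.6% in cluster 16. It did not pass the filter, so no test was made.

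Among nicotinic genes, Chrnb4 encodes a beta subunit of the channels of autonomic ganglia. It stood at 9.14 and 14.4 CPM in the delta class and was called against beta cells (3.77 ± 0.64, adjusted p = 0.000108, lost under DESeq2). Alpha cells had no UMI, so delta was at least 17.6-fold higher there (floor of 3 UMIs over both libraries). All 83 delta UMIs, 21 and 62, came from the 7 and 7 cells of cluster 16, at 248 and 222 CPM, and every other delta cluster had 0. Without cluster 16 the gene did not pass the filter. Chrnb2, a beta subunit common in the brain, was spread over the endocrine types at 9.19 to 21.4 CPM with the highest sums in beta cells, at 19.3 and 21.4, and was called in none of the comparisons between endocrine types. Chrna4, its usual partner, had 4 UMIs, all in beta cells.

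Adra2a encodes the Gi-coupled alpha-2 adrenergic receptor (chr19:54044151-54048982, plus strand). It stood at 70.6 and 81.4 CPM in beta cells, 31.8 and 35.4 in the delta class, 4.37 and 3.27 in PP cells and 3.14 and 3.94 CPM in alpha cells. Beta, delta and the other types did not overlap, and alpha and PP sums overlapped (PP against alpha 0.15 ± 0.67, not called). Against beta cells the log2 fold change was -3.98 ± 0.31 in alpha (adjusted p = 4.39e-11), -3.83 ± 0.41 in PP (3.86e-08) and -1.13 ± 0.20 in delta (0.000133), and delta against alpha was 2.85 ± 0.34 (3.64e-07). Within the delta class, cluster 3 stood at 14.7 and 29.1 CPM and cluster 8 at 53.5 and 55.3. With cluster 3 alone as delta, delta against beta was -1.66.

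Adra1a, a Gq-coupled adrenergic receptor gene, had 64 UMIs and stood at 0.438 to 4.37 CPM in the endocrine types. Its stellate sums, 23.0 and 10.1 CPM, rest on 3 and 1 UMIs. Adrb1, the Gs-coupled beta-1 receptor gene, had 183 UMIs at 2.19 to 11.8 CPM in the endocrine types. Neither was called in any of the 6 comparisons. In its transcripts Adrb1 came nearest to the usage threshold of the receptor genes, in alpha against beta cells, with an adjusted p of 0.0917 from diffSpliceDGE that was 0.357 without the replicate block.

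P2ry1 encodes a Gq-coupled receptor for ADP and ATP (chr3:61002795-61008982, plus strand). It stood at 90.4 and 59.9 CPM in beta cells, 63.6 and 46.6 in delta, 3.28 and 1.64 in PP cells and 1.57 and 4.38 CPM in alpha cells. Beta and delta sums overlapped and lay far above alpha and PP sums. The log2 fold change against beta cells was -4.13 ± 0.36 in alpha (adjusted p = 5.35e-10) and -4.44 ± 0.51 in PP (1.50e-07), and -0.40 ± 0.22 in delta, which was not called. Delta against alpha was 3.72 ± 0.38 (2.04e-08). Here cluster 3, at 47.0 and 54.6 CPM, stood near the whole class. The single-exon coding model ENSMUST00000193943 held 87.2% (82.1 to 91.2%) and 89.6% (82.5 to 94.5%) of the transcript UMIs in beta cells.

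P2rx4, a channel opened by ATP, stood at similar levels in the endocrine types: 25.7 and 25.6 CPM in delta, 32.4 and 27.1 in alpha, 36.6 and 32.1 in beta and 40.5 and 32.7 in PP cells, with no call in any comparison. Macrophages, too few to test, stood at 82.4 and 48.4 CPM from 9 and 3 UMIs. In beta cells 49.6% (40.9 to 58.4%) and 34.7% (24.0 to 46.5%) of its transcript UMIs were on the 12-exon coding model ENSMUST00000031429, and 43.7% and 52.0% on a single-exon retained-intron model.

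The adenosine receptor genes ran in opposite directions between alpha and beta cells. Adora1, coupled to Gi, stood at 25.0 and 23.9 CPM in beta cells and 16.5 and 11.2 in delta, while alpha and PP cells had 1 UMI each. The ratio of beta to alpha was 103 (18.3 to 4081, adjusted p of the fit 1.42e-07), of beta to PP 37.4 (6.65 to 1484, 0.000141), and of delta to alpha 54.8 (9.57 to 2188, 2.27e-05). These intervals cover counting error only. Adora2a, coupled to Gs, stood at 10.99 and 8.31 CPM in alpha cells, 3.92 and 4.19 in delta, 2.19 and 4.91 in PP and 0.551 and 1.14 CPM in beta cells. It was higher than in beta cells in alpha by 3.86 ± 0.62 (2.29e-05) and in delta by 2.25 ± 0.66 (0.019, lost with cell types from transcript clusters). Delta against alpha for Adora2a just missed the threshold, at -1.61 ± 0.53 (0.0501).

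Galr1 encodes a Gi-coupled receptor for galanin, a peptide of sympathetic nerves. It stood at 49.8 and 41.3 CPM in beta cells, 24.4 and 18.6 in delta, 10.9 and 9.81 in PP and 1.05 and 3.94 CPM in alpha cells, with no overlap between these types. The log2 fold change against beta cells was -3.67 ± 0.39 in alpha (adjusted p = 2.80e-08), -1.72 ± 0.39 in PP (0.00212) and -1.05 ± 0.25 in delta (0.00289, lost under DESeq2 and without the block). Delta against alpha was 2.61 ± 0.43 (7.62e-05). That last value did not come from the cells with the most delta markers: cluster 3 had 8 of the 136 delta UMIs, at 2.93 and 3.03 CPM, cluster 16 had 48, at 118 and 136 CPM, and cluster 8 had 50, at 35.7 and 22.4. In own-marker clusters (cluster 3 alone as delta, beta without cluster 5), delta against alpha was -0.058 and delta against beta -3.61. The beta class was also uneven, with 82.6 and 54.998 CPM in cluster 5, which is not among the own-marker clusters, and 34.8 and 27.5 in cluster 0.

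Avpr1b encodes a Gq-coupled vasopressin receptor (chr1:131599239-131612000, plus strand). It stood at 27.7 and 23.6 CPM in alpha cells, 6.56 and 3.27 in PP, 2.61 and 3.26 in delta and 0.184 and 0.684 CPM in beta cells, so alpha sums lay far above the rest. Alpha against beta was 6.17 ± 0.55 (adjusted p = 1.06e-09), and PP and delta were lower than alpha cells by -2.31 ± 0.56 (0.0149, lost without the block) and -3.42 ± 0.44 (2.09e-06). Delta against beta was 2.74 ± 0.73 (0.00944), but 65.0% of the delta UMIs lay in cluster 12, whose alpha markers summed to 164580 and 121247 CPM against 5704 and 3315 in cluster 3. With cluster 3 alone the value was 1.52 and not called. The part of those alpha markers in the delta level was not tested further.

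Npy1r, a Gi-coupled receptor for neuropeptide Y, had 18 UMIs, of which 12 and 4 were in stellate cells, at 92.2 and 40.3 CPM, and 2 in endocrine cells. The ratio of stellate and endothelial cells to endocrine cells was 224 (52.7 to 2009), but with 0 UMIs in endothelial, beta and PP cells the fit gave no usable error, and edgeR did not call it. Dopamine and serotonin receptor genes were barely seen: Htr2b had 9 UMIs, Drd2 4 and Htr1b 1.

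The counts of calls in the 3 comparisons with beta cells share the beta sums, so they are given side by side. Of the 21 tested receptor genes, 13 were called in alpha against beta cells (4 higher, 9 lower), where 19.0% of all genes tested were called (9.13% higher, 9.91% lower). In the delta class 12 were called (6 higher, 6 lower) against 13.8% of all genes (8.78% and 5.01%). In PP cells it was 11 (4 higher, 7 lower) against 17.3% (8.89% and 8.43%). Delta against alpha cells called 10 (7 higher, 3 lower) against 10.5% (6.99% and 3.56%), and PP against alpha cells 4 (2 and 2) against 5.01% (2.83% and 2.17%). The median log2 fold change over the 21 genes was -0.71 in alpha, -0.37 in delta and -0.29 in PP cells against beta, beside 0.02, 0.00 and -0.03 over all genes tested. Without TMM scaling the median of all genes moved to -0.39 in alpha and -0.42 in PP cells, and no called receptor fold changed sign.

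**Figure D2:**
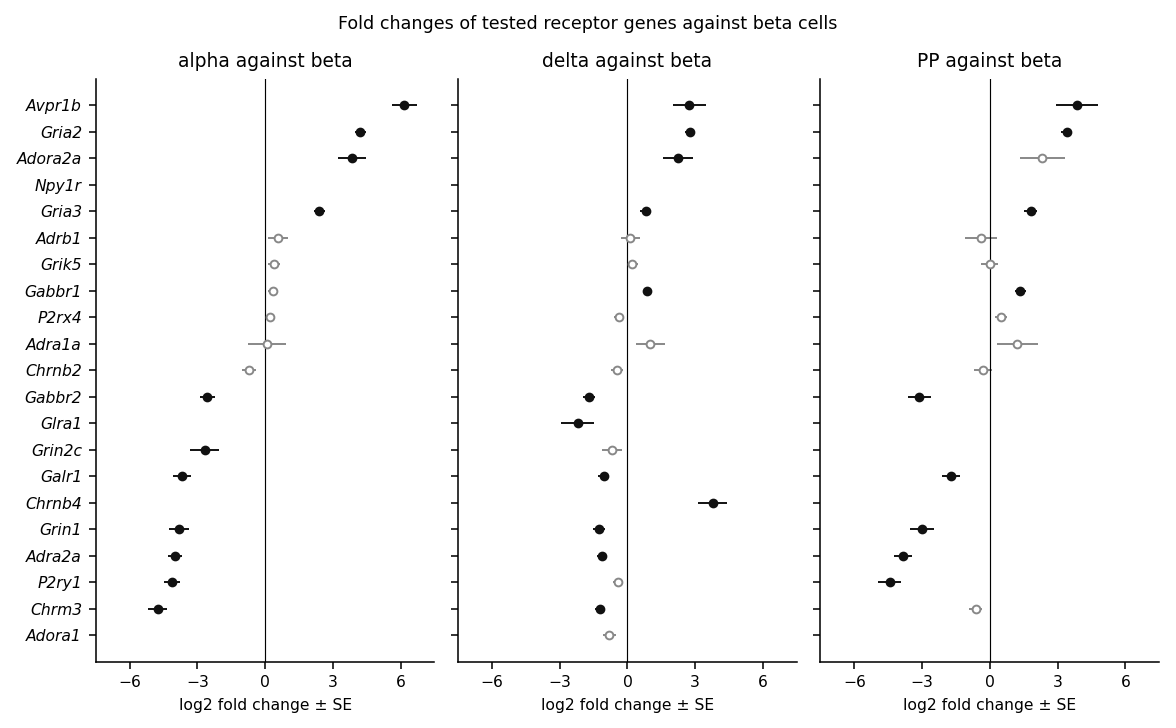
Log2 fold changes (± SE) of tested receptor genes in alpha cells, the delta class and PP cells against beta cells from edgeR's fit. Filled points are called at an adjusted p under 0.05 and open points are not, and genes with 3 or fewer UMIs on one side are left out. Gria2 and Avpr1b lie to the right of 0 in all panels, while Adra2a, Grin1 and Gabbr2 lie to the left.

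Without cluster 16, 10 of 20 tested receptor genes were called in delta against beta cells (5 higher, 5 lower), where 11.7% of all genes were called (6.97% higher, 4.7% lower). In delta against alpha cells it was 10 of 20 (6 higher, 4 lower) against 9.22% (5.81% and 3.41%). Shares of receptor UMIs by cluster show that most genes were spread over clusters 3, 8, 7 and 12, while Chrnb4, Galr1 and Chrm4 drew 100%, 35.3% and 28.6% of their delta UMIs from cluster 16.

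**Figure D3:**
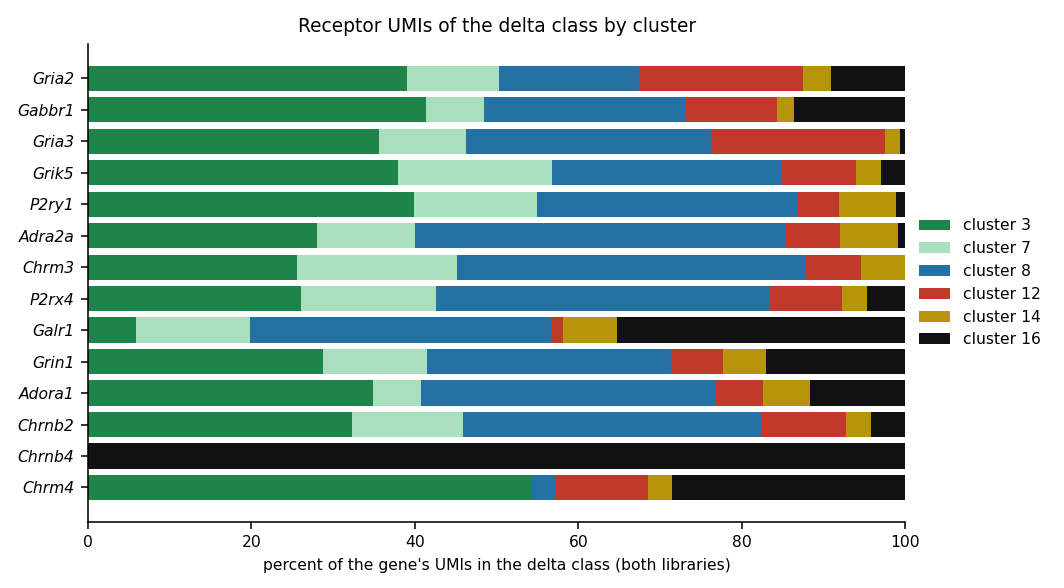
Share of each gene's UMIs in the delta class that lies in each of its 6 clusters, as percent on the horizontal axis, for 14 receptor genes over both libraries. Chrnb4 lies wholly in cluster 16, which has 14 cells, and Galr1 has 5.88% in cluster 3.

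Stellate and endothelial cells together, against the mean of the 4 endocrine types, called 8 receptor genes lower and 0 higher, where 30.7% of all genes were called, 17.1% lower and 13.6% higher. Over all genes the median log2 fold change was -0.25 in the main fit, -0.08 under DESeq2 and 0.06 without TMM scaling. Of the receptor genes, DESeq2 called 4 lower and 1 higher, and without TMM scaling it was 5 and 1. Without endothelial cluster 15 it was 7 lower and 1 higher, Adora2a at 2.14 ± 0.74 (edgeR, adjusted p = 0.0150), where 35.3% of all genes were called (23.7% lower, 11.5% higher). That setting left 10 endothelial cells with 63832 UMIs in replicate 2, under the minimum of 20 cells. Adora2a had only 9 nonendocrine UMIs even with cluster 15 kept. In the main fit the nonendocrine sums are also small (99232 to 353271 UMIs). Gria2 had 5 UMIs, all in stellate cells, against 1758 in endocrine cells (-6.16 ± 0.64, adjusted p = 1.20e-08), and Grik5 had 5 against 429 (-4.15 ± 1.08, 0.00377, lost without the block). Chrnb2 had 0 UMIs, so endocrine cells were at least 4.2-fold higher. Ratios of endocrine to nonendocrine cells were 22.0 for Galr1 (1 UMI, 3.93 to 868), 16.3 for Grin1 (1 UMI, 2.91 to 644) and 8.62 for Gabbr2 (2 UMIs, 2.37 to 71.4). The Grin1 call was lost in 9 settings, among them DESeq2, no TMM scaling, no block and leaving out endothelial cluster 15, and was kept with no filter on low counts. That of Gabbr2 was lost under DESeq2, without TMM scaling, in own-marker clusters and without cells of high doublet score. Gabbr1 was lower by -0.91 ± 0.30 (0.0197, lost under DESeq2, without TMM scaling and with sums thinned to 99232 UMIs), with 69.1 and 40.3 CPM in stellate and 24.1 and 11.3 in endothelial cells. Gria3 was lower by -1.85 ± 0.53 (0.00806, lost under DESeq2, and -4.18 without cells of high doublet score), but this joins unlike types: stellate cells stood at 46.1 and 70.5 CPM and endothelial cells at 4.81 and 0, and only 1 of 2 libraries had the mean in that direction.

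Transcript usage within receptor genes did not pass the threshold in any comparison between endocrine types. Usage could be tested for 7 receptor genes in alpha against beta, 8 in delta against beta, 7 in PP against beta, 7 in delta against alpha and 3 in PP against alpha cells, and edgeR's diffSpliceDGE called 0 in each. At an unadjusted p under 0.05 there was 1 gene in alpha against beta (Adrb1) and 1 in PP against beta (P2rx4), and 0 in the others. No other tool was run for usage. Of all genes tested for usage, 0.973%, 0.799%, 0.707%, 0.282% and 0.115% were called in these comparisons. Depth limits this: transcript UMIs covered 93.0% of the gene UMIs for Gabbr2 but 37.0% for Gria2 and 9.40% for Adra2a, and only 8 receptor genes had 50 transcript UMIs in a type in each library.

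**Figure D4:**
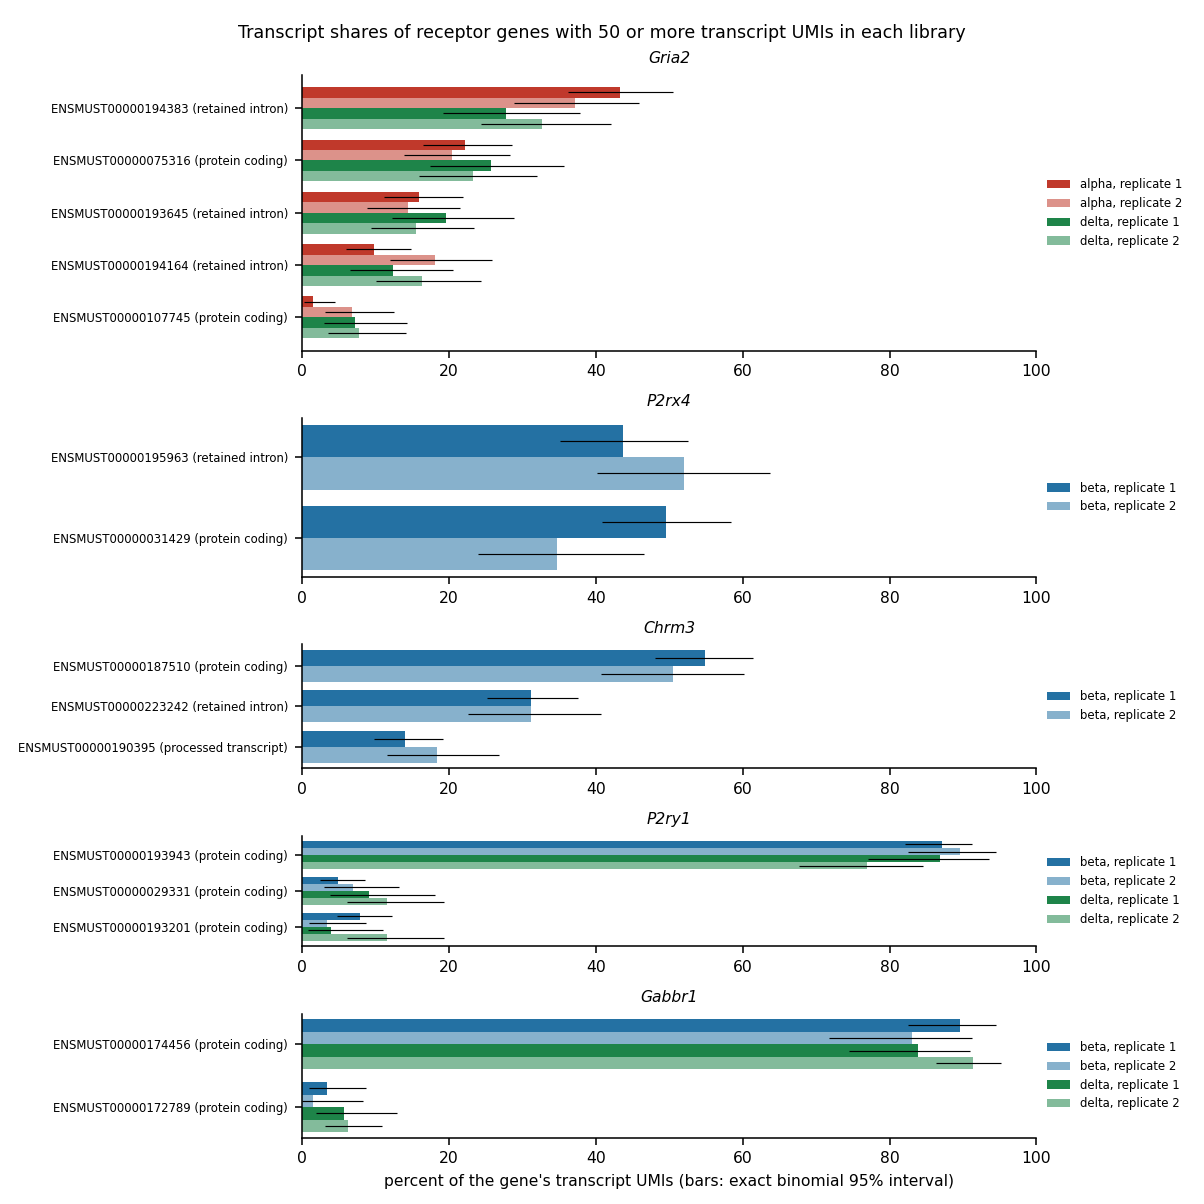
Share of a gene's transcript UMIs on each annotated transcript that reaches 5% in a bar, in percent, for 5 receptor genes in cell types with 50 or more transcript UMIs in each library. Bars are single libraries (dark, replicate 1; light, replicate 2) and lines are exact binomial 95% intervals, which cover counting error only. The 4-exon model of Gabbr1 and the single-exon model of P2ry1 hold most UMIs in every bar, while Gria2 is split over 5 models.

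The promoters of 4 receptor genes, chosen after their levels were seen, are printed to show the sequence at their starts, from 250 bases before to 50 after the RefSeq start (GRCm38.p6, 5′ to 3′ on the gene's strand). Gria2 lies at chr3:80802786-80803085 (minus), Adra2a at chr19:54045009-54045308 (plus), P2ry1 at chr3:61002535-61002834 (plus) and Chrm3 at chr13:10360754-10361053 (minus). The last 3 share low levels in alpha cells. The Adra2a window lies wholly inside the GENCODE gene (chr19:54044151-54048982), downstream of that annotated start. Capitals mark motif matches: in Gria2 the core of the RE1 element bound by the neuronal repressor REST, from base 80 of the window, and in Adra2a a short cyclic AMP response element (TGACG), from base 182.

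Gria2 promoter: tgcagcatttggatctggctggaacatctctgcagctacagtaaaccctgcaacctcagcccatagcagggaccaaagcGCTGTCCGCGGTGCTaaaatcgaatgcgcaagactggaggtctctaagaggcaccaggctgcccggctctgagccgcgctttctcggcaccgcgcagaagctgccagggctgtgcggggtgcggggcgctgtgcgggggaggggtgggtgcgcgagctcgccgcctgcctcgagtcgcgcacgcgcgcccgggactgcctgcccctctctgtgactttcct
Adra2a promoter: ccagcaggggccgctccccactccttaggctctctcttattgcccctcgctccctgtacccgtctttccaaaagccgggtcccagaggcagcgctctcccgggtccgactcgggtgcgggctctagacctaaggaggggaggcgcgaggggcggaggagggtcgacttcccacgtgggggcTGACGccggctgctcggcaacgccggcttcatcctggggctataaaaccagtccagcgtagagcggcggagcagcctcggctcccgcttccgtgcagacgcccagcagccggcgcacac
P2ry1 promoter: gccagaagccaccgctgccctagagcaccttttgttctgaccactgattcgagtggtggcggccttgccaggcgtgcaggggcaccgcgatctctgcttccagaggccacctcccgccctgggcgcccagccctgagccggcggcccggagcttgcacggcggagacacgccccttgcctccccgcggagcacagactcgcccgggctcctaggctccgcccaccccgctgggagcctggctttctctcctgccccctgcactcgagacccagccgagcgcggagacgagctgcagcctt
Chrm3 promoter: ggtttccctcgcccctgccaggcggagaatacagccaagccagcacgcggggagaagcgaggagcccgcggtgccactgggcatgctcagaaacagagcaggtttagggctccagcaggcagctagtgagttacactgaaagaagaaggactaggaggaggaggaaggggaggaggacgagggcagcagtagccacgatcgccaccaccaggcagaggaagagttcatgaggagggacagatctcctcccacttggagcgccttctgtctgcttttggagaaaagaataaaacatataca

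Promoters were found for 25 receptor genes and 32851 windows in all, and both strands were searched. The RE1 core, searched after the Gria2 sequence had been read, was in 1 of the 25 (Gria2) and in 0.0304% of all windows. The short element TGACG, which is also part of the full element, was in 7 of 25 (Adra2a, Adrb1, Chrnb2, Grik2, Grin1, Grm8 and P2rx4) and in 20.8% of all windows. The full element TGACGTCA (1.79% of windows), the short MAF site TGCTGAC (a single arm of the full element, 4.67%) and the homeodomain core TAATTA (5.29%) were in 0 of the 25. A match is a description of letters in this window only.

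Of 98 receptor genes of the same families that are not on the list, 18 could be tested. In alpha against beta cells 2 rose and 3 fell, beside 9.13% and 9.91% of all genes tested. Without TMM scaling it was 1 and 3. Oxtr, the oxytocin receptor, stood at 43.9 and 63.0 CPM in alpha, 26.1 and 28.6 in delta, 1.09 and 14.7 in PP and 1.47 and 3.19 CPM in beta cells (alpha against beta 4.93 ± 0.36, adjusted p = 2.22e-11). Glrb, the beta subunit of the glycine channel, stood at 50.7 and 39.8 CPM in alpha and 35.5 and 28.04 CPM in beta cells (0.93 ± 0.22, adjusted p = 0.00258), and this call was lost without TMM scaling (0.51, adjusted p = 0.0958). P2ry6, a UDP receptor, had 446 UMIs in beta cells (48.9 and 41.0 CPM), 70 in delta and 3 in alpha cells, and Galr3 had 152 in beta and 3 in alpha cells. Adora2b, a Gs-coupled adenosine receptor, had 137 UMIs in beta and 2 in alpha cells. In PP against beta cells 0 rose and these same 3 genes fell, beside 8.89% and 8.43% of all genes.

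In delta against beta cells 7 of the 18 rose and 2 fell, beside 8.78% and 5.01% of all genes. Without cluster 16 it was 3 and 2 of 15, beside 6.97% and 4.7%. Cluster 16 held 99.4% of the delta UMIs of Chrna3 (the usual partner of Chrnb4), 98.5% of Htr3a (a serotonin-gated channel) and 94.6% of Chrm2. It held 0% of the delta UMIs of Oxtr. The median over the 18 genes was 0.24 in alpha, 0.60 in delta and -0.37 in PP cells against beta. Over all genes tested it was 0.02, 0.00 and -0.03.

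Of 47 genes for auxiliary subunits, scaffolds and receptor chaperones, 30 could be tested. In alpha against beta cells 6 rose and 4 fell, beside 9.13% and 9.91% of all genes tested. The median was 0.21, beside 0.02 over all genes. Without TMM scaling 4 rose and 5 fell, with a median of -0.21 beside -0.39. Cacng4, an auxiliary subunit of AMPA receptors, stood at 49.7 and 35.0 CPM in alpha, 20.8 and 13.1 in PP, 17.0 and 13.3 in delta and 3.12 and 2.74 CPM in beta cells (alpha against beta 4.24 ± 0.31, adjusted p = 2.14e-11). Olfm1, a secreted protein found in AMPA receptor complexes, was higher by 2.82 ± 0.27 (2.48e-09). Adarb1, which edits the RNA of Gria2, was lower in alpha cells by -2.33 ± 0.35 (9.05e-06), at 4.71 and 5.69 CPM against 34.4 and 36.9 in beta cells. Grip1, a scaffold that binds AMPA receptors, was lower by -1.75 ± 0.31 (0.00014). In delta against beta cells 9 rose and 3 fell, beside 8.78% and 5.01% of all genes. They were led by Ly6h, a regulator of nicotinic receptors, at 327 and 308 CPM against 1.65 and 4.79 (6.70 ± 0.34, 1.25e-14). Cluster 16 held 0.964% of those Ly6h UMIs. Kctd8, an auxiliary subunit of GABA-B receptors, stood at 27.4 and 27.0 CPM in delta and 9.55 and 5.47 in beta cells. In PP against beta cells 5 rose and 4 fell, beside 8.89% and 8.43% of all genes. Without TMM scaling it was 3 and 5.

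Of 51 genes of G proteins, their regulators, receptor kinases and G-protein-gated potassium channels, 45 could be tested. In alpha against beta cells 10 rose and 7 fell, beside 9.13% and 9.91% of all genes tested. In delta it was 12 and 3 beside 8.78% and 5.01%, and in PP 11 and 6 beside 8.89% and 8.43%. Medians were 0.44, 0.32 and -0.06, beside 0.02, 0.00 and -0.03 over all genes. Without TMM scaling the split was 7 and 12 in alpha and 4 and 14 in PP cells. Medians were then 0.03 and -0.46, beside -0.39 and -0.42 over all genes. Gnas, the alpha subunit of Gs, stood at 2840 and 2691 CPM in alpha and 811 and 747 in beta cells (2.25 ± 0.32, adjusted p = 3.70e-06). Rgs4, which shortens Gi and Gq signals, stood at 42.9 and 75.7 CPM in alpha, 56.6 and 62.6 in delta, 50.3 and 60.5 in PP and 4.23 and 3.65 CPM in beta cells (alpha against beta 4.27 ± 0.29, 3.82e-12). Kcnj3, a potassium channel opened by Gi receptors, was higher in alpha cells by 4.92 ± 0.65 (1.39e-06), at 14.1 and 12.3 CPM against 0.184 and 0.912 in beta cells. Gng12, a gamma subunit, was lower by -3.11 ± 0.25 (6.67e-11), at 36.6 and 59.5 CPM against 565 and 543. Rgs9 stood at 86.2 and 71.7 CPM in delta and 20.2 and 16.9 in beta cells (2.12 ± 0.22, 1.55e-08). Gng3, called higher in the delta class, had 98.5% of its delta UMIs in cluster 16.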

How the data were processed

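Single-cell gene and transcript tables of 2 libraries were used. The authors deposited raw UMI counts per gene symbol and per Ensembl transcript for each cell barcode, marked as a subset, and a cell table with clusters and cell types. The submitters' processing notes name mm10 and Seurat. The aligner, the counter, the use of strand and which subset it is are not given in the sources used here, so overlapping and antisense genes cannot be told apart.

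Cells were the barcodes that the authors' cell table lists, 4814 of 6395 and 1093 of 2124. Counts were summed per library and cell type (12 sums of 99232 to 5442462 UMIs, macrophages left out) and fitted in edgeR 4.0.16 (filterByExpr, TMM, quasi-likelihood, 5 residual degrees of freedom) with the library as a block, because each library gives every type. The correlation of deviations between types of a library was 0.0887 to 0.477. Transcript IDs were assigned a gene with GENCODE M21 (69648 of 69994, 99.9% of UMIs), and usage was tested with diffSpliceDGE for transcripts with at least 10 UMIs and 5% of the gene's UMIs. DESeq2 1.42.0 was an alternative. Scrublet in scanpy 1.11.5 called 6 and 14 cells, 0.125% and 1.28%, so a further setting dropped the top 6% by score. The scripts were tested on simulated data with 200 changed genes.

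Levels were printed for receptor genes with 50 UMIs or more, folds for called genes, up to 4 genes per list and comparison by adjusted p, and transcript shares where a type had 50 transcript UMIs in each library. A few further genes and clusters were named after their values were seen. The receptor genes and the other lists were chosen with earlier results of these data known, and so were the own-marker clusters (beta 0, 2 and 4, alpha 1 and 9, delta 3, PP 6). The alternatives without delta cluster 16 and without endothelial cluster 15 were added after seeing the data. For 1 to 3 UMIs a ratio of totals with its 95% counting interval was given in place of the fitted fold.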

Additional observations from a re-analysis of the deposited data

Results flagged for a closer look

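Among barcodes that the authors left out of their cell table, 21 receptor genes had over 3 UMIs in each library. The number grows with depth, so the counts are given as values only. These barcodes lie outside every comparison above, and there are no control samples to set them against. Gria2 had 170 and 245 UMIs there (86.3 and 62.0 CPM), Adra2a 123 and 471 (62.4 and 119 CPM) and Chrm3 149 and 432 (75.6 and 109 CPM).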

How the results depend on the processing

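Of 58 called receptor folds, 1 changed sign in any setting where it could be compared: Galr1 in delta against alpha cells, 2.61, was -0.058 in own-marker clusters. Not every fold could be compared in every setting. Leaving out replicate 1 or replicate 2 gave values with no test, means over types of log2 levels with 0.5 UMIs added. On that scale 58 of 58 kept their sign, but in mean CPM Gria3 of replicate 2 stood at 35.3 in nonendocrine and 29.4 in endocrine cells, against its called direction. Among the folds that could be compared, DESeq2 kept 46 calls and lost 11.

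Without the replicate block, which pairs types within a library, the genes called were 1281 in alpha, 862 in delta and 1149 in PP against beta, 633 in delta and 61 in PP against alpha cells, and 3522 in nonendocrine cells. Receptor genes called were then 12, 7, 10, 10, 1 and 6. Genes with called usage were 13, 20 and 9 against beta and 3 and 0 against alpha cells.

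With every sum thinned to 99232 UMIs, genes called were 169, 95 and 179 against beta, 85 and 23 against alpha and 1211 in nonendocrine cells, and receptor genes 1, 0, 0, 0, 0 and 1, which limits what shallow sums can show. Of the 58 called receptor folds, 2 kept their call there and 8 lost it. The others could not be tested, because their genes did not pass the filter on the thinned sums. DESeq2 called 1195 genes and 7 receptor genes in delta against beta and 5 receptor genes in nonendocrine cells. Without TMM scaling, 4043 genes were called in alpha against beta (708 higher, 3335 lower), 3402 in PP against beta (656 and 2746) and 2375 in delta against alpha cells (2132 and 243). Cell types from transcript clusters gave 2 receptor genes in PP against alpha, and leaving out endothelial cluster 15 gave 1373 genes there. Usage calls in own-marker clusters were 28 in delta against beta, 4 in delta against alpha and 0 in PP against alpha, where transcripts of at least 30 UMIs gave 1. The causes were not tested.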
